A study of Mus musculus with 2 samples.

Results

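The S100 gene family encodes small calcium-binding proteins, and 10 of its members were followed here in brain nuclei after sham surgery and after stroke: S100a8, S100a9, S100b, S100a10, S100a11, S100a4, S100a6, S100a1, S100a13 and S100a16. They were chosen by name, as the calprotectin pair and the members linked to glia, vessels and annexins, out of 21911 protein-coding genes. Earlier results of these data were known when they were chosen. The measurement was chromatin accessibility by single-nucleus ATAC-seq, in which a transposase inserts into open DNA and each fragment carries the barcode of its nucleus. Wild-type C57BL/6J young adult male mice were subjected to transient occlusion of the middle cerebral artery with an intraluminal filament, followed by reperfusion (MCAO/R), or to a sham operation in which the filament was placed but the artery was not kept closed. Brains were collected at 48 h and frozen, without olfactory bulbs and cerebellum, and several were pooled into each of the 2 libraries. The sham library held whole brains and the stroke library held ipsilateral hemispheres, so the surgery and the tissue taken cannot be told apart.

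Most S100 proteins change shape when calcium binds to their EF hands and then dock onto partner proteins. Inside cells they act on annexins, myosin and other calcium-dependent proteins, and several are released and bind the receptors Ager and Tlr4. In brain, S100b is a widely used astrocyte marker, S100a10 is one of the genes linked to reactive astrocytes, and S100a8 with S100a9 form calprotectin, an abundant protein of neutrophils and monocytes. All members but S100b lie on chromosome 3. In mm10, S100a1, S100a13, S100a16, S100a4, S100a6, S100a8 and S100a9 fall in this order between 90511034 and 90695721, S100a11 (93520488-93526287) and S100a10 (93555080-93564643) lie next to each other further along, and S100b lies on chromosome 10 (76253853-76261159).

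A fragment was counted for a gene when it overlapped the gene body or the 2 kb upstream of it, and levels (CPM) are given per 1000000 fragments of the nuclei counted. Barcodes called as cells and with over 20% of their fragments in peaks were kept, which left 6817 of 6979 sham and 5054 of 8740 stroke barcodes, with medians of 10356 and 9898 fragments. The kept barcodes of both libraries had 42 barcode sequences in common, and doublets were not removed. With 1 library per condition there was no replicate and no test. Ratios of stroke over sham are therefore given with 95% intervals, which cover counting error only and not the spread between animals or libraries. A gene is called higher or lower here when it differed by at least 1.5-fold, its interval lay off 1, and it had at least 20 fragments in both libraries together. A gene can reach that minimum through 1 library alone, and the shares of all genes called were taken under the same rule. Nuclei were assigned to classes from marker genes, and 8 classes whose separate check markers were also high are named: astrocyte-like (379 sham and 474 stroke nuclei), oligodendrocyte-like (99 and 157), OPC-like, for oligodendrocyte precursor cells (118 and 93), myeloid-like (25 and 216), endothelial-like (57 and 69), mural and leptomeningeal-like (74 and 135), glutamatergic neuron-like (2170 and 1027) and GABAergic neuron-like (764 and 399). Check markers were compared with their mean over the other classes. The glutamatergic check list was at 512.3 CPM in glutamatergic and 540.0 CPM in GABAergic neuron-like nuclei, so it does not set these apart. The GABAergic check list was at 240 and 649 CPM in the same order. The gates for granulocytes and for ependymal and choroid plexus cells did not pass their check markers and are unnamed, and 3131 sham and 2484 stroke nuclei stayed unassigned.

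S100a11, a partner of annexins A1 and A2, had the widest gap between the libraries among the members tested in astrocyte-like nuclei. It held 12 fragments in the sham library, from 12 nuclei, and 75 in the stroke library, from 62 nuclei. Its level was 4.24 CPM in sham and 19.9 CPM in stroke, a ratio of 4.70 (2.54–9.496). S100a10, which forms a tetramer with annexin A2, stood at 9.89 CPM in sham (28 fragments) and 16.5 CPM in stroke (62 fragments), a ratio of 1.67 (1.05–2.70). S100a4, which binds non-muscle myosin, stood at 9.89 CPM (28 fragments) and 17.3 CPM (65 fragments), a ratio of 1.75 (1.104–2.82). These 3 were called higher among the 8 members with enough fragments in this class, where 12.2% of all tested genes were called in either direction and 7.03% higher. Of the 3, S100a11 reached the fragment minimum on stroke fragments but not on sham fragments. The median log2 ratio of the members was 0.32, against -0.03 over all genes tested. With the check markers used as the gate S100a11 alone was called of the 8. S100a10 was not called at promoters alone or with LSI components 2 to 30 for the neighbours in the class assignment, and thinning each nucleus to 5000 fragments left S100a11 as the 1 member called higher and S100b called lower.

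Accessible stretches in and between S100a11 and S100a10 are shown as sequence so that the elements within them can be read, and the intergenic one lies outside the counted window of either gene. Within each 1 kb bin that was called, the 300 bases with the most cut ends in astrocyte-like nuclei were taken from mm10. The S100a11 promoter is the RefSeq entry for GRCm38.p6, from 250 bases before to 50 bases after the start. Capitals mark TGANTCA, the AP-1 element bound by Fos and Jun proteins, searched on both strands. The plus strand is printed.
S100a11 promoter, chr3:93520246-93520545: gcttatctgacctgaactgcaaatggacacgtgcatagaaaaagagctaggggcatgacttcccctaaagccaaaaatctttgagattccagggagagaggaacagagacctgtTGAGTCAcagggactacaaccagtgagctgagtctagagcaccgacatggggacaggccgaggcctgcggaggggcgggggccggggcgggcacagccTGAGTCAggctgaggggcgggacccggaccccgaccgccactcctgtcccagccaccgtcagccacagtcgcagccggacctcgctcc
S100a11 intron, chr3:93522736-93523035: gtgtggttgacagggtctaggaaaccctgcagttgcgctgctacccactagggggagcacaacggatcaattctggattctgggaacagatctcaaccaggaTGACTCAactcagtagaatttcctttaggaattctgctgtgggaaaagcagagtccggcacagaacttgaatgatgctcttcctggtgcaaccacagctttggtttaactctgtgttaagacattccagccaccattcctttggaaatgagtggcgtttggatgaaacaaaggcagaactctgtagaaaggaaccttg
Between S100a11 and S100a10, chr3:93537188-93537487: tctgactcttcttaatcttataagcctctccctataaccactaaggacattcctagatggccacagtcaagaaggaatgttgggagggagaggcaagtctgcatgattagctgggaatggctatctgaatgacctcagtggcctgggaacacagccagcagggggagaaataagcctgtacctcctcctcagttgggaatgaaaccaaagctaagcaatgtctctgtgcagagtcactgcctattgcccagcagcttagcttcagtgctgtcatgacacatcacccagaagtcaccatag
S100a10 intron, chr3:93556074-93556373: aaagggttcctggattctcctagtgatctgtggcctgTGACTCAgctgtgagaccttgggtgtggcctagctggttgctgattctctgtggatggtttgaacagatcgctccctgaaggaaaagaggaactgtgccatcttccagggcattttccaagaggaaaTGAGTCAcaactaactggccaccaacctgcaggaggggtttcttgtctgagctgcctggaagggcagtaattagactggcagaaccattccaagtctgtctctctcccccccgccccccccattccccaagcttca
The S100a11 promoter holds the element at 2 places, the S100a11 intron window at 1 and the S100a10 intron window at 2, while the intergenic window holds no match. The window of the other called S100a11 bin, chr3:93520488-93520787, which is not printed, also holds none. AP-1 elements stood in 7.81% of 32851 promoters, in 10.9% of 54739 astrocyte windows chosen the same way across the genome, and in 37.3% of the 6541 windows from bins called higher in stroke. A match is a description of letters and not a bound site.

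Along the S100a11 and S100a10 region, 8 of 65 bins (1 kb) could be tested in astrocyte-like nuclei. Of these, 5 were called higher in stroke. Across the genome, 18.9% of tested bins were called in either direction and 11.9% higher. The fragment minimum used for genes, over both libraries together, was also used for bins. Each of the 5 reached it on stroke fragments alone and none on sham fragments. The count is thus of bins selected partly by their stroke level. The share across the genome was taken under the same minimum. The bin at the S100a11 promoter, chr3:93519488-93520487, held 5 sham and 24 stroke fragments, a ratio of 3.61 (1.35–12.1). Next to it, in the gene, chr3:93520488-93521487 held 2 and 24 fragments (9.02, 2.24–78.8). The intron bin chr3:93522488-93523487, which contains the sequence above, held 5 and 31 fragments (4.66, 1.80–15.4). All 3 lie in the S100a11 window and so make up part of the gene's own ratio, and the first 2 adjoin and can share fragments. An intergenic bin between both genes, chr3:93536488-93537487, held no sham fragment and 21 stroke fragments (5.58 CPM), at least 5.26-fold higher than a floor of 3 fragments in the sham library. In glutamatergic neuron-like nuclei that same bin held 2 sham fragments and 1 stroke fragment. The bin in S100a10, chr3:93555488-93556487, held 8 and 28 fragments (2.63, 1.17–6.68). Within 1 kb on either side of its start, S100a11 had 6 sham and 39 stroke fragments, a ratio of 4.89 (2.05–14.1), whereas S100a10 had 24 and 43, a ratio of 1.35 (0.799–2.32) that was not called.

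**Figure D1:**
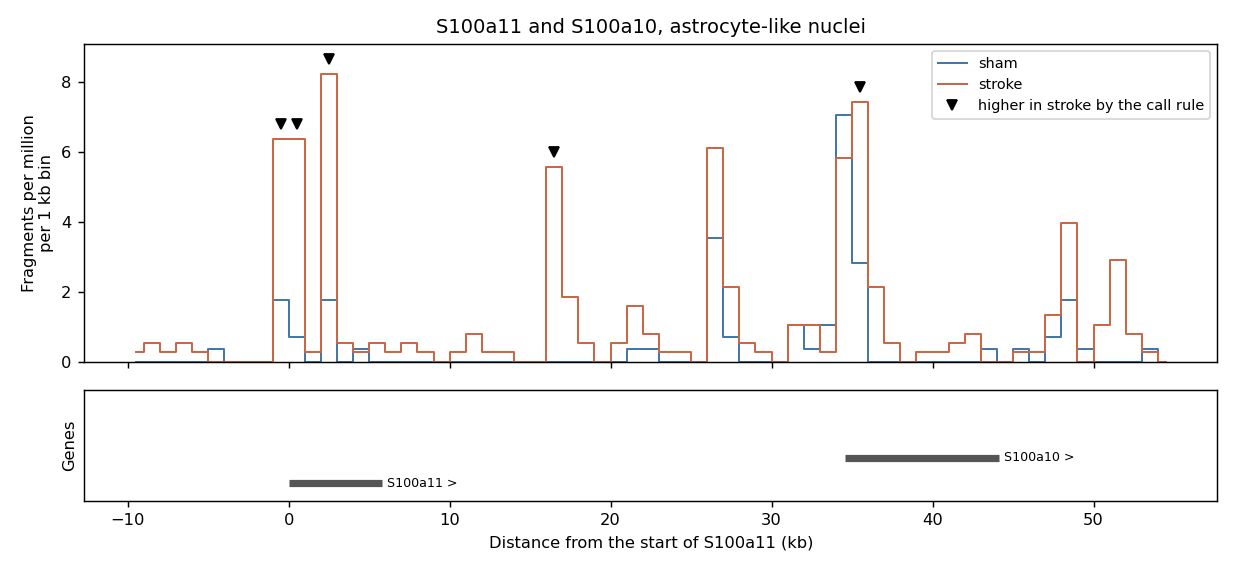
Accessibility in 1 kb bins, in CPM, against distance along chromosome 3 around S100a11 and S100a10 in astrocyte-like nuclei of the sham and stroke libraries. The stroke trace stands above the sham trace at the S100a11 start and intron, at the intergenic bin with 0 sham fragments and in the called bin of S100a10; triangles mark called bins.

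Of 15 annexins, receptors and other partners of the family, 14 could be tested in astrocyte-like nuclei and 1 was called, a share close to the 7.03% of all genes called higher there. This was Anxa2, the annexin that S100a10 and S100a11 bind, with 80 sham and 210 stroke fragments, 28.3 CPM and 55.8 CPM (1.97, 1.52–2.59). In myeloid-like nuclei Anxa2 was the 1 partner called of 14, with 1 sham and 77 stroke fragments (6.31, 1.099–252.3), where 3.13% of all genes were called higher. Over all kept nuclei 2 of 15 partners were called, against 9.69% of all genes called higher. They were Cd36, a scavenger receptor, at 9.60 and 14.6 CPM (1.53, 1.38–1.69), and Anxa1, at 2.97 and 4.68 CPM (1.58, 1.31–1.90). Anxa1 was also called higher in glutamatergic neuron-like (1.63), GABAergic neuron-like (2.32) and unassigned nuclei (1.51), and Cd36 in GABAergic neuron-like nuclei (1.99). In each of these sets 15 partners were tested, and 3.36%, 4.21% and 7.7% of all genes were called higher. The calls in OPC-like nuclei went both ways, with the receptor Ager (0.0887, 25 and 2 fragments), Bsg (0.426) and Myh9, the myosin bound by S100a4 (0.582), lower and Trp53 (1.66) and Syt1 (1.58) higher, out of 11 tested, where 7.88% of all genes were called lower and 5.11% higher. Lower calls elsewhere were Trp53 (0.485) and Syt1 (0.601) in oligodendrocyte-like nuclei, Myh9 in endothelial-like (0.626) and in mural and leptomeningeal-like nuclei (0.644), Fgf1 in the latter (0.572) and Anxa11 in GABAergic neuron-like nuclei (0.619). The tested partners numbered 10 in oligodendrocyte-like, 10 in endothelial-like, 11 in mural and leptomeningeal-like and 15 in GABAergic neuron-like nuclei, and 8.5%, 7.44%, 6.71% and 2.94% of all genes were called lower there. Syt1 and Ryr2 had the most fragments of the list over all kept nuclei, at 465.7 and 386.2 CPM in sham and 394.4 and 339.6 CPM in stroke.

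The astrocyte-like nuclei of both libraries were not alike in other ways. Their median depth was 5840 fragments per nucleus in sham and 7538.5 in stroke. Their median share of fragments in peaks was 56.5% in sham and 52.3% in stroke, and their astrocyte check list stood at 706 and 681 CPM. Marker lists of other classes were read in the astrocyte-like nuclei as well. The endothelial gate list was at 303 CPM in sham and 381 CPM in stroke (1.26, 1.15–1.37), with 10 of its 14 genes higher in stroke, against 2222 and 2068 CPM in the endothelial-like class itself. The endothelial check list was at 105 and 99.1 CPM, and the mural check list at 56.9 and 67.7 CPM against 290 and 364 CPM in its own class, while the mural gate list had a ratio of 1.04. Ratios with intervals off 1 were also seen for the ependymal and choroid plexus check list (1.48, 1.194–1.84), the oligodendrocyte gate list (1.24, 1.098–1.397) and the GABAergic neuron check list (1.23, 1.11–1.36), and for the glutamatergic (0.809) and GABAergic neuron gate lists (0.807), the OPC gate (0.908) and check lists (0.809), the astrocyte gate list (0.9395) and the ependymal and choroid plexus gate list (1.16, 1.008–1.34). No list gene was at 0 in both libraries, and the part of these signals in the S100 values was not tested.

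In the sham library the S100a11 level of astrocyte-like nuclei lay close to that of neurons. The ratio of the astrocyte-like to the glutamatergic neuron-like level was 0.958 (0.482–1.74) in sham and 4.85 (3.37–7.03) in stroke. Vascular classes had the highest S100a11 levels in both libraries. Mural and leptomeningeal-like nuclei were at 18.9 CPM in sham (3 fragments) and 23.6 CPM in stroke (14 fragments), and endothelial-like nuclei at 10.9 CPM (2 fragments) and 28.8 CPM (7 fragments). Neurons were low in both libraries, at 4.42 and 4.11 CPM in glutamatergic and 2.54 and 2.60 CPM in GABAergic neuron-like nuclei. S100a10 was highest in mural and leptomeningeal-like nuclei in sham (56.7 CPM, 9 fragments, against 25.3 CPM in stroke) and in endothelial-like nuclei in stroke (33.0 CPM, 8 fragments, against 10.9 CPM in sham). Its level in glutamatergic neuron-like nuclei was 11.4 CPM in sham and 13.9 CPM in stroke. The ratio of the astrocyte-like to that level was 0.865 (0.565–1.28) in sham and 1.19 (0.875–1.59) in stroke, so counting error did not separate the classes. Pooled over both libraries, the interval separated the highest class from the next for neither gene. In OPC-like nuclei S100a11 had 0 sham and 6 stroke fragments, too few for a call.

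**Figure D2:**
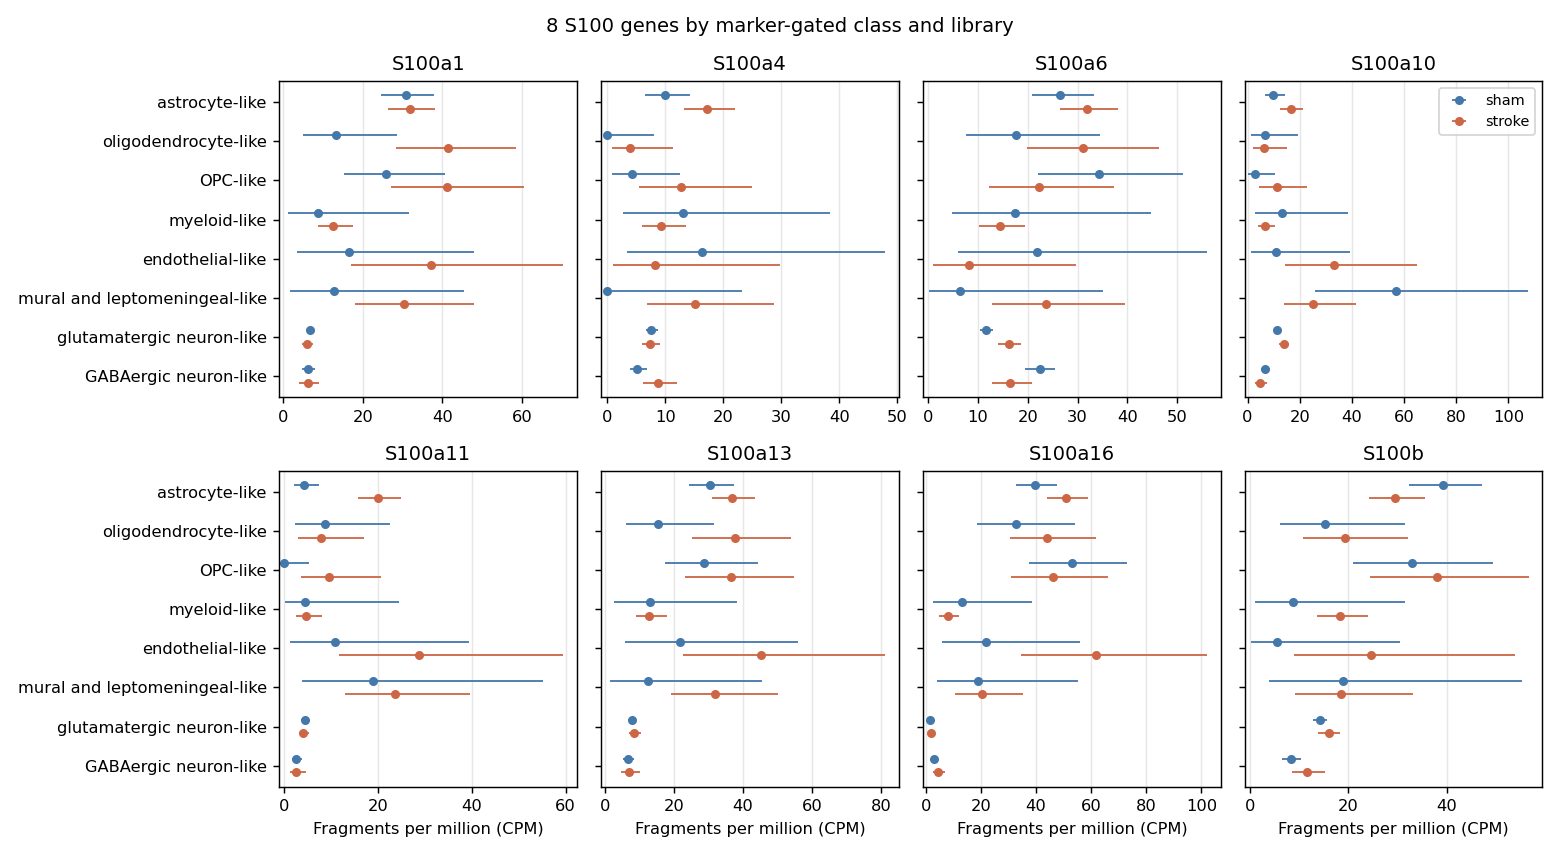
Levels of 8 members, in CPM, in each named class of the sham and stroke libraries, with bars for 95% counting intervals. S100a16 is high in astrocyte-like, oligodendrocyte-like, OPC-like and endothelial-like classes and low in both neuron classes, whereas S100a11 in astrocyte-like nuclei goes from 4.24 CPM in sham to 19.9 CPM in stroke.

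S100a4 and S100a6 lie near each other in the chromosome 3 cluster, with S100a5 between them. The S100a4 window lies within that of the transcript model Gm42674 over 96.3% of its length and shares 21.8% with S100a3, so fragments there cannot be given to one gene. Within 1 kb of its start S100a4 had 23 sham and 62 stroke fragments in astrocyte-like nuclei (2.03, 1.24–3.43). In GABAergic neuron-like nuclei it was at 5.19 CPM (51 fragments) and 8.74 CPM (37 fragments), a ratio of 1.69 (1.07–2.62), the 1 member called of 8 tested where 7.15% of genes were called and 4.21% higher. S100a6, calcyclin, was at 26.5 and 31.9 CPM in astrocyte-like nuclei (1.20, 0.894–1.63), at 11.6 and 16.2 CPM in glutamatergic neuron-like nuclei (1.39, 1.16–1.67) and at 22.4 and 16.5 CPM in GABAergic neuron-like nuclei (0.739, 0.557–0.971). Its intervals lay off 1 on opposite sides in both neuron classes, and neither ratio reached 1.5-fold.

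In the 205 kb around the cluster, 23 bins could be tested in astrocyte-like nuclei and 4 were called higher, none lower. Across the genome 11.9% of all tested bins were called higher. These 4 also reached the fragment minimum on stroke fragments alone. After thinning to 5000 fragments per nucleus 11 bins could be tested, and 1 was called, lower in stroke. The 4 bins called higher lay together near S100a4 and in the long model of the neighbouring S100a3. The bin chr3:90604034-90605033 in S100a4 held 12 sham and 44 stroke fragments (2.76, 1.43–5.73). Those in the S100a3 model held 9 and 30 fragments at chr3:90574034-90575033 (2.51, 1.16–6.0), 4 and 30 at chr3:90587034-90588033 (5.64, 1.99–22.0) and 7 and 39 at chr3:90600034-90601033 (4.19, 1.85–11.1). The bin chr3:90587034-90588033 was at 1.413 and 7.968 CPM in astrocyte-like nuclei but higher in neurons in both libraries. It was at 13.95 and 16.97 CPM in glutamatergic and 15.05 and 17.48 CPM in GABAergic neuron-like nuclei (sham and stroke). The other called bins of the cluster were lower in both neuron classes than in astrocyte-like nuclei. S100a3 as a whole was at 33.2 and 64.3 CPM in astrocyte-like nuclei (1.94, 1.52–2.48). The most accessible stretches of chr3:90587034-90588033 and chr3:90600034-90601033 are shown with the same marking of AP-1 elements.
S100a3 intron, chr3:90587034-90587333: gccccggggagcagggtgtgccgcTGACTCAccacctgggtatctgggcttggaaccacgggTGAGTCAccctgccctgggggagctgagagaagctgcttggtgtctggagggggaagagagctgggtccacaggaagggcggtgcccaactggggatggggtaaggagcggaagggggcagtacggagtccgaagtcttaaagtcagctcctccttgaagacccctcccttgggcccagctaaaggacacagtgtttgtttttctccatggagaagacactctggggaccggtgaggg
Overlapping an S100a3 exon, chr3:90600730-90601029: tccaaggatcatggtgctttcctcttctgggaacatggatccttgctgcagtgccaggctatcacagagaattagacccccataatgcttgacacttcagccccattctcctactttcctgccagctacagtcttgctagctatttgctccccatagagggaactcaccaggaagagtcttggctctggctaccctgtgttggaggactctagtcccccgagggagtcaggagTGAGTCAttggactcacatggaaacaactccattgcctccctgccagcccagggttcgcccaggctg
Of the 9 windows from called bins in the cluster and the S100a11 region, 6 held an AP-1 element. A STAT element, TTCNNNGAA, stood in 2 of them, against 8.48% of all astrocyte windows and 14.9% of those higher in stroke, and a C/EBP element, TTNNGCAA, in none, against 10.9% and 14.8%. The highest astrocyte bins of the cluster were elsewhere and close between libraries. A bin with no gene, chr3:90556034-90557033, between S100a16 and S100a3, had 36.0 CPM in sham and 28.2 CPM in stroke, and the bin with the S100a1 and S100a13 starts had 22.6 and 23.1 CPM.

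**Figure D3:**
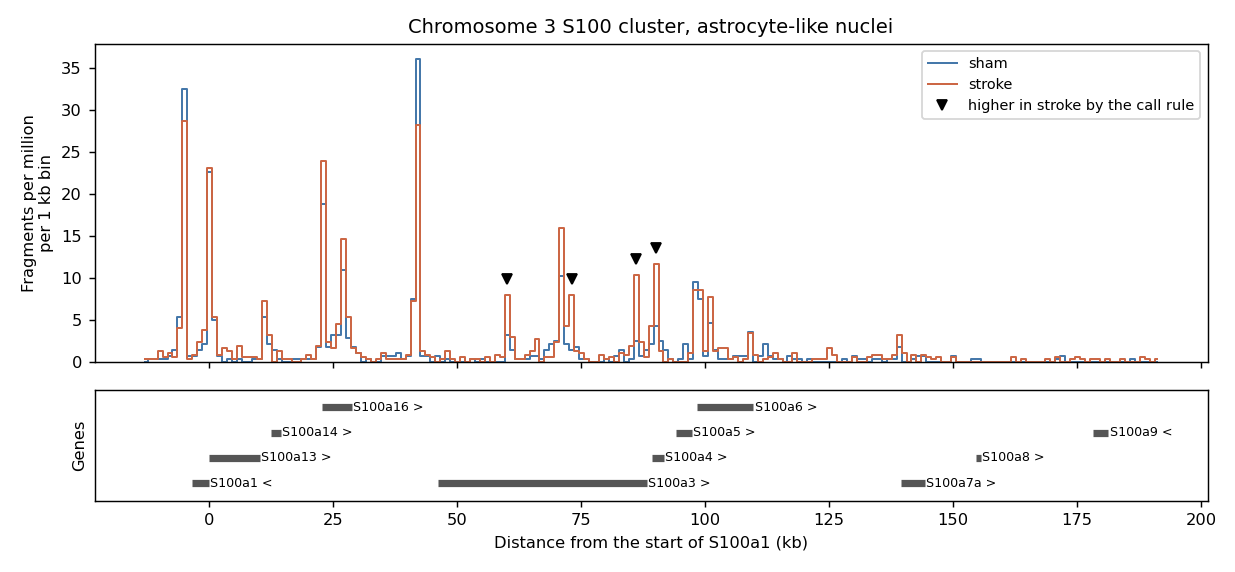
Accessibility of astrocyte-like nuclei in 1 kb bins, in CPM, against distance in kb from the start of S100a1 along the chromosome 3 cluster, in the sham and stroke libraries. The tall bin at the S100a1 and S100a13 starts reaches 22.6 CPM in sham and 23.1 CPM in stroke, and the 4 called bins, marked by triangles, lie in S100a3 and S100a4.

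S100a16, a widely expressed member, was far more accessible in astrocyte-like, oligodendrocyte-like, OPC-like and endothelial-like nuclei than in neurons. Its pooled level was 49.7 CPM in OPC-like, 46.1 CPM in astrocyte-like, 44.6 CPM in endothelial-like and 39.9 CPM in oligodendrocyte-like nuclei, which did not differ beyond counting error from one to the next. The endothelial-like level was 21.8 CPM in sham (4 fragments) and 61.8 CPM in stroke (15 fragments). The pooled S100a16 level lay between these and neurons in mural and leptomeningeal-like nuclei, at 19.95 CPM (11.2–32.9). It was 8.28 CPM in myeloid-like, 3.34 CPM in GABAergic and 1.57 CPM in glutamatergic neuron-like nuclei. Astrocyte-like over glutamatergic neuron-like levels gave 28.5 (19.5–42.6) in sham and 26.3 (17.3–41.7) in stroke. Of 8 tested members, 5 were called higher in astrocyte-like than in glutamatergic neuron-like nuclei in sham and 7 in stroke, where 22.8% and 24.7% of all genes were called higher.

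Over all kept nuclei S100a16 was at 4.49 CPM in sham (330 fragments) and 9.83 CPM in stroke (519 fragments), a ratio of 2.19 (1.90–2.52). It was 1 of 2 members called of 10, where 9.97% of tested genes were called and 9.69% were called higher. The classes took different shares of the fragments in the libraries: astrocyte-like nuclei went from 3.85% to 7.13%, myeloid-like from 0.311% to 5.28% and glutamatergic neuron-like from 36.3% to 24.4%. Sham class levels weighted by the stroke shares gave 6.94 CPM for S100a16. Within astrocyte-like nuclei S100a16 was at 39.6 and 51.0 CPM (1.29, 1.02–1.64), which was not called, and in unassigned nuclei at 2.81 and 6.37 CPM (2.27, 1.75–2.96), which was. In that unassigned set S100a9 was called too (9 and 19 fragments, ratio 2.55), where 8.2% of genes were called and 7.7% higher.

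S100a1, which binds the ryanodine receptor Ryr2, and S100a13, which takes part in Fgf1 release, start 43 bp apart on opposite strands. Their windows share 3958 bp, or 73.9% of the S100a1 window and 32.6% of the S100a13 window, so their values are partly the same fragments. In oligodendrocyte-like nuclei S100a1 had 6 sham and 32 stroke fragments (13.2 and 41.5 CPM, ratio 3.15, 1.301–9.23) and S100a13 had 7 and 29 (15.3 and 37.6 CPM, 2.45, 1.05–6.63). Both were called, out of 5 members tested, where 13.9% of genes were called and 5.41% higher. Each reached the fragment minimum on stroke fragments alone and neither on sham fragments, so the count is of members selected partly by their stroke level. In astrocyte-like nuclei the same genes had ratios of 1.04 (0.780–1.38) and 1.22 (0.922–1.61). Over all kept nuclei S100a1 was at 7.02 and 9.89 CPM (1.41, 1.24–1.59) and S100a13 at 7.85 and 11.55 CPM (1.47, 1.31–1.65), both short of 1.5-fold. Both were called with over 30% of fragments in peaks and when scaled to fragments in peaks, and S100a13 also at promoters alone and without the upstream stretch. Over the settings their log2 ratios ran from 0.12 to 0.73 and from 0.25 to 0.79. In stroke both stood at 30.3 to 45.3 CPM in astrocyte-like, oligodendrocyte-like, OPC-like and vascular classes and at 12.55 and 12.9 CPM in myeloid-like nuclei. In sham they were at 25.8 to 30.7 CPM in astrocyte-like and OPC-like nuclei but at 12.6 to 21.8 CPM in oligodendrocyte-like and vascular classes, from 2 to 7 fragments each, and at 8.75 and 13.1 CPM in myeloid-like nuclei. Pooled levels in neurons were 6.18 to 8.04 CPM.

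S100b, the astrocyte marker of the family, did not follow S100a11. Its astrocyte-like level was 39.2 CPM in sham and 29.5 CPM in stroke, with 111 fragments in each library, and the ratio of 0.752 (0.573–0.987) was not called. Over all kept nuclei it was at 16.18 and 16.67 CPM (1.03, 0.943–1.13). The sign of that small difference depended on the barcodes and the scaling, with log2 ratios of -0.40 (-0.52 to -0.28) over all called barcodes, -0.097 at promoters alone and 0.28 (0.15 to 0.40) scaled to fragments in peaks. The promoter is shown for comparison with that of S100a11.
S100b promoter, chr10:76253586-76253885: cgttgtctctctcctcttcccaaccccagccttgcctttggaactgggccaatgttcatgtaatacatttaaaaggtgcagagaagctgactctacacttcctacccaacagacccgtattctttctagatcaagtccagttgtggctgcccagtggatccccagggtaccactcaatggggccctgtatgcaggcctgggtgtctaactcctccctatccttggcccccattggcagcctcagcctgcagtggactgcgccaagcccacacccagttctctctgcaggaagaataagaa
No TGANTCA stands in this window. Of the 10 promoter entries of the members, 2 held the element, that of S100a11 and 1 of those of S100a16. The S100a4 entry held none, and S100a10 had no entry. All 5 tested bins around S100b were uncalled in astrocyte-like nuclei. Astrocyte-like nuclei had the highest S100b level in sham (39.2 CPM, OPC-like 32.9 CPM from 23 fragments) and OPC-like nuclei in stroke (38.1 CPM from 24 fragments, astrocyte-like 29.5 CPM). Pooled over both libraries, the OPC-like over astrocyte-like ratio was 1.05 (0.750–1.45), so counting error did not separate them. Neurons still had pooled levels of 14.8 CPM in glutamatergic and 9.31 CPM in GABAergic neuron-like nuclei. In myeloid-like nuclei S100b had 2 sham and 51 stroke fragments, 8.75 and 18.3 CPM (2.09, 0.549–17.7), where the 25 sham nuclei left a wide interval. No member was called of 7 tested in myeloid-like nuclei, where 3.13% of genes were called higher and 7.03% lower, or of 8 in glutamatergic neuron-like nuclei, where 3.36% were higher and 0.911% lower. The same held for 5 tested members in OPC-like nuclei (5.11% and 7.88% of genes) and 3 in mural and leptomeningeal-like nuclei (4.01% and 6.71%). No member had enough fragments for a call in endothelial-like nuclei.

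**Figure D4:**
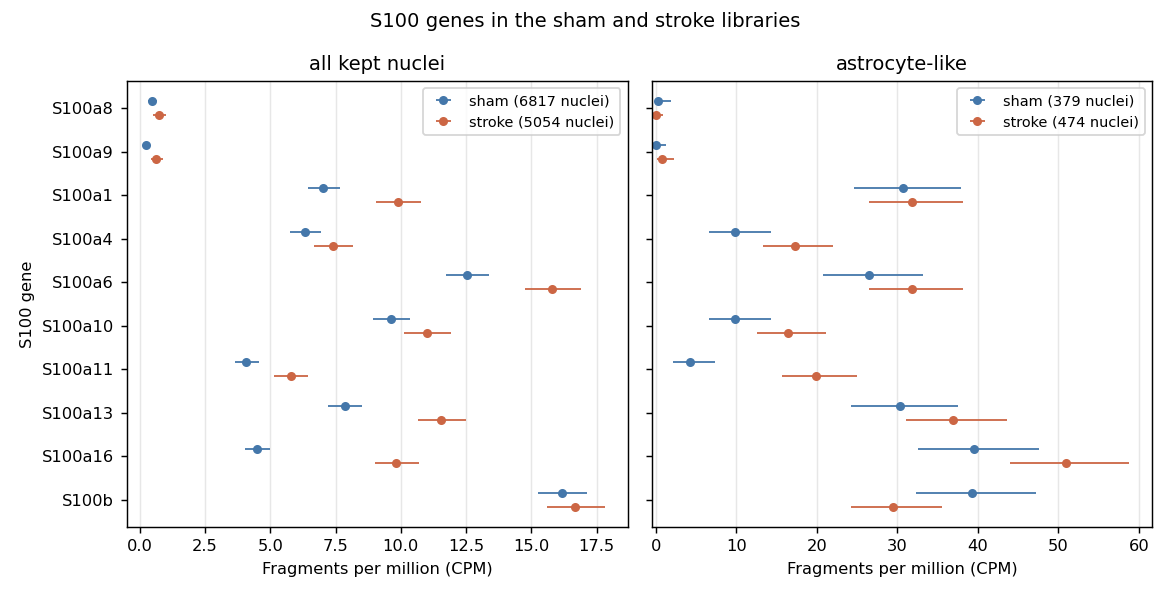
Levels of the 10 members, in CPM, in the sham and stroke libraries over all kept nuclei and over astrocyte-like nuclei, with bars for 95% counting intervals. Over all nuclei S100a16 goes from 4.49 to 9.83 CPM, and S100b stays near 16 CPM.

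Of 6 other annotated S100 genes followed, S100a3 was called higher in astrocyte-like nuclei (above, 1 of 3 tested). It was also called higher in oligodendrocyte-like nuclei (10 sham and 40 stroke fragments, 2.37, 1.162–5.30). In mural and leptomeningeal-like nuclei it was called from 2 sham and 36 stroke fragments (4.81, 1.239–41.3). In the oligodendrocyte-like and the mural and leptomeningeal-like class it was the 1 gene of the list that could be tested. It reached the fragment minimum there on stroke fragments alone. S100a2, whose window shares 3262 bp with that of S100a3, was not among the 6. S100g, whose window lies inside that of Ctps2, was called higher over all kept nuclei (0.558 and 1.099 CPM, 1.97) and in glutamatergic neuron-like nuclei (3.67, 1.529–9.43), each time as 1 of 6 tested. S100a7a was called lower in GABAergic neuron-like nuclei (0.565, 1 of 5 tested) and S100z in unassigned nuclei (0.524, 1 of 6 tested), where 0.499% of all genes were called lower. The shares of all genes in the other sets are those given above.

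The calprotectin genes were the least accessible members. Per kb of window, S100a8 had 0.187 CPM and S100a9 0.0778 CPM pooled over both libraries, at the percentiles 22.1 and 13.1 of all genes, whereas S100b was highest at 1.76 CPM per kb (percentile 81.9) and the median gene had 0.668. Over all kept nuclei S100a8 had 34 sham and 38 stroke fragments (0.463 and 0.720 CPM, 1.56, 0.953–2.55). S100a9 had 17 and 33 (0.231 and 0.625 CPM, 2.70, 1.46–5.17) and was called, but not among nuclei with over 30% of fragments in peaks, at promoters alone, where its log2 ratio was 2.89 but too few fragments remained, or after thinning. With all called barcodes both were called, at log2 ratios of 1.08 for S100a8 and 2.04 for S100a9, and S100a8 was also called at promoters alone (0.77), with cut ends (0.62) and scaled to fragments in peaks (0.87), but turned to -0.087 after thinning. In the stroke library only 1 kept nucleus held a fragment of both genes. Fragments spread evenly over the chromosomes would give 3.08 CPM for both genes together, above the 0.694 CPM of sham and 1.35 CPM of stroke nuclei.

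By class, S100a8 had its highest pooled level in myeloid-like nuclei, at 3.31 CPM from 10 stroke fragments in 7 nuclei. The ratio of that level to the next, in oligodendrocyte-like nuclei, was 2.03 (0.433–19.1), so counting error did not separate these classes. S100a9 had none there, and its highest level, 7.04 CPM in endothelial-like nuclei, came from 3 fragments of 1 nucleus. The sham myeloid-like nuclei held no S100a8 fragment, which allows up to 13.1 CPM at 3 fragments. The immune gates joined the 241 myeloid-like nuclei with the 225 nuclei of the granulocyte gate, which did not pass its check and held 1 fragment, of S100a9. Both genes together gave 11 fragments in these gates, 2.19 CPM, against 111 fragments and 0.915 CPM in all other kept nuclei, a ratio of 2.40 (1.16–4.45). By library, sham had 0.609 CPM in the gates (0.0154–3.39, 1 fragment) and 0.696 CPM in other nuclei, and 162 of its 187 gated nuclei came from the granulocyte gate. Stroke had 2.96 CPM (1.42–5.45) in the gates and 1.23 CPM in other nuclei. The sham interval of the gates took in their stroke level. Among nuclei with over 30% of fragments in peaks the log2 ratio was -0.012, and the interval also took in no difference with over 1000 and under 100000 fragments in peaks, with the check markers as gate, after thinning and with the markers of the nucleus alone. A list of 10 macrophage and monocyte genes was uneven in the stroke myeloid-like nuclei. Stab1 was at 68.8 CPM (sham 39.4), F13a1 at 50.2 CPM (sham 4.38) and Mrc1 at 40.2 CPM (sham 35.0). The monocyte genes Plac8 and Ly6c2 were at 15.1 CPM (sham 43.8) and 0.359 CPM (sham 8.75), and Ccr2 was at 10.75 CPM (sham 4.38). Cd163 (13.98 CPM), Ms4a7 (12.55 CPM) and Chil3 (2.15 CPM) had no sham fragment, and Pf4 was at 3.23 CPM (sham 4.38). The sham values rest on 10 or fewer fragments each. Most calprotectin fragments of the stroke library lay outside the kept nuclei, in the 3686 called barcodes with at most 20% of fragments in peaks. These held 52 fragments of S100a8 and 59 of S100a9, 3.14 CPM together (2.58–3.78), which is 1.02 times the even spread, and 3 of the 104 barcodes with a fragment held both genes.

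**Figure D5:**
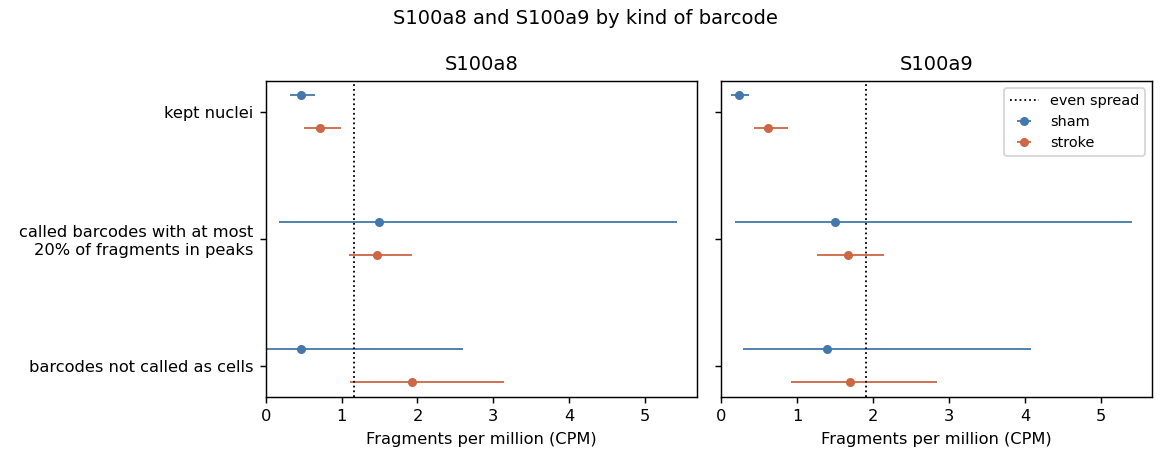
Levels of S100a8 and S100a9, in CPM, in kept nuclei, in called barcodes with at most 20% of fragments in peaks and in barcodes not called as cells, with bars for 95% counting intervals. Kept nuclei lie below the dotted lines, which mark an even spread of fragments at 1.17 CPM for S100a8 and 1.91 CPM for S100a9.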

How the data were processed

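Fragment counts were taken from the deposited fragment files and barcode metrics, which the authors made with Cell Ranger ATAC 2.1.0 on mm10, according to the submitters' processing notes. Each row of a fragment file is 1 deduplicated fragment, counted once however many reads supported it, without molecular identifiers. The members, gene lists and motifs were chosen with earlier results of these data known. Named genes were the 10 members, the other annotated S100 genes and 15 partners that passed the call rule or had the most fragments, a list of 10 macrophage and monocyte genes, and the 3 genes most like each member, of which the text gives some; 1 result is not reported here.

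Genes were those of GENCODE vM21, and a fragment was counted for every window it overlapped. Called barcodes with over 20% of fragments in peaks were kept. Classes came from a Poisson mixture on marker lists, summed over each nucleus and its 15 neighbours in LSI components 2 to 10 of 5 kb tiles that left out the S100 loci. A nucleus needed a posterior of at least 0.95 and 3 markers, and a class was named when check markers, held out of the gate and of the embedding, reached at least 1.3 times, in each library, their mean level over the other gated classes of both libraries pooled. The sum over neighbours and the 1.3-fold limit were set after check marker levels had been seen. Doublets were not called. Levels carry exact Poisson intervals, and ratios carry exact conditional binomial intervals at 95%. Scripts used Python 3.11.15, numpy 2.4.6, scipy 1.17.1, scikit-learn 1.9.0, pandas 2.3.3 and matplotlib 3.10.9, and were tested on simulated data. Alternatives covered the barcode filter, the depth measure, the windows, the gate and thinning, and 2 gate alternatives (LSI components 2 to 30, and markers of the nucleus alone) were chosen after seeing the data.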

Additional observations from a re-analysis of the deposited data

How the results depend on the processing

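No paired analysis was possible because only 1 library stood on either side. S100a16 over all kept nuclei and S100a11 in astrocyte-like nuclei were called under every alternative run, with log2 ratios of 0.76 to 1.36 and 1.71 to 3.61. Of the members, 2 were called over all kept nuclei. This became 4 with over 30% of fragments in peaks, 6 with levels scaled to fragments in peaks and 4 at promoters alone. The share of all genes called was taken in the main setting alone, so counts under the alternatives have no such share beside them and are not a result about the members. Scaling to fragments in peaks added 0.23 to every log2 ratio there and 0.04 in astrocyte-like nuclei. It added 0.25 in both neuron classes, 0.27 in myeloid-like nuclei and 0.12 to 0.16 in the other named classes. In astrocyte-like nuclei the 3 calls became 1 with the check markers as gate, and 2 at promoters alone, with LSI components 2 to 30 (both without S100a10) and after thinning (S100a11, and S100b lower). In myeloid-like nuclei the count of 0 became 1 without the upstream stretch (S100b). By class, the count of members whose highest class was clear of all others went from 0 to 1 with cut ends (S100a9) and to 2 with the markers of the nucleus alone (S100a13 and S100a16). The log2 ratio of S100a8 and S100a9 in the immune gates, 1.26, reversed to -0.012 with over 30% of fragments in peaks, where the gates held 2 fragments, and its interval took in 0 in the other settings named beside the value. Of the cluster bins, 4 were called, against 8 with cut ends, which count each fragment's ends separately, and 1 (lower in stroke) after thinning, which left 207 sham and 322 stroke nuclei and 11 tested bins. The cause of the other moves was not tested. Intervals were wide where a class held few fragments of a member, as in sham myeloid-like nuclei.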

Other observations

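Over the 15 combinations of class and library with at least 50 nuclei, which share libraries and depth, the level of S100a11 was most like those of Slco1a5 (Pearson's r = 0.914) and Anxa2 (0.911). S100a16 was most like Kank1 (0.947) and Cnn3 (0.936), S100b was most like Spsb4 (0.921) and S100a10 was most like Fancb (0.925).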
